A study of Arabidopsis thaliana with 28 samples.

Results

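Flavonols are the yellow, UV-absorbing flavonoids of Arabidopsis thaliana, and the transcripts described here are those of 7 genes that make them or switch on the genes that make them. The 7 genes were taken by name: the 4 early enzymes CHS, CHI, F3H and FLS1 and the 3 R2R3-MYB regulators MYB11, MYB12 and MYB111, of 27371 genes in each deposited table. The rule is the list of names and uses no threshold on the values, but the list was drawn up with earlier results of these data known. RNA was read from whole 14 day-old seedlings, grown in long days on sugar-free plates, in 2 experiments of 4 groups each.

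The flg22 experiment held the group labelled idd4 (hereafter idd4-labelled seedlings, the T-DNA line Salk_148352C, with its insertion in the first exon of the zinc-finger gene IDD4) and Col-0 wild type (WT), each after 1 h in 1 µM flg22 and untreated. The peptide flg22 is the stretch of bacterial flagellin that plant cells recognise. The expressor experiment held 3 transgenic lines in Col-0 and their own WT, with no treatment named. IDD4-DD and IDD4-AA carried RFP fusions of IDD4 with aspartic acid (DD) or alanine (AA) in place of serine-73 and threonine-130. IDD4ox carried the unmodified protein fused to GFP. All 3 transgenes were driven by the ubiquitin promoter pUBI10, so they were not limited to the cells that use IDD4 by nature, and endogenous IDD4 was still present. The labels list 3 samples per group in the flg22 experiment and 2 per group in the expressor experiment, but the tables give 1 pooled value per gene and group. The gene identifiers stood out of step with the values in 21642 rows and were sorted alphabetically first, and every value below rests on that order. No spread between samples can therefore be given, no difference below was tested, and read depth is unknown. Levels are FPKM, fragments scaled to transcript length and library size. Differences are in log2(FPKM + 1), the first-named group minus the one it is set against, which understates the difference of weakly expressed genes.

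In the background biology, chalcone synthase (CHS) joins a phenylpropanoid starter to malonyl units, chalcone isomerase (CHI) closes the ring, flavanone 3-hydroxylase (F3H) makes dihydroflavonol, and flavonol synthase 1 (FLS1) turns this into flavonol. Dihydroflavonol 4-reductase (DFR) draws on the same dihydroflavonol for anthocyanin. MYB11, MYB12 and MYB111 are related activators that each can turn on the early enzyme genes without a bHLH partner. They work in different organs, MYB12 mainly in the root and MYB111 mainly in the cotyledons. Light, above all UV-B, raises these genes through the bZIP factor HY5. Flavonols screen UV light and modulate auxin transport, and flg22 is known to counteract the UV-B induction of flavonoid genes in Arabidopsis cells.

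The labels and tissue were checked against a few genes. The early flg22-responsive gene CYP81F2 had 582 FPKM after flg22 and 9.14 FPKM untreated in idd4-labelled seedlings, and 492 and 7.01 FPKM in WT. IOS1 had 115 and 4.73 FPKM in idd4-labelled seedlings and 87.5 and 5.34 FPKM in WT, and FRK1 6.98 and 0.364 FPKM, against 4.38 and 0.0543 FPKM in WT. IDD4 itself went against its label: it had 23.0 FPKM in untreated idd4-labelled seedlings and 14.5 FPKM in untreated WT, and 22.4 and 5.69 FPKM after flg22. The genotype is therefore given below only as labelled. In the expressor lines IDD4 had 198 FPKM in IDD4-DD, 71.6 FPKM in IDD4-AA and 197 FPKM in IDD4ox, against 9.23 FPKM in WT. The 4 shoot markers summed to between 9612 and 21632 FPKM in every group, and the 3 flower markers to at most 1.51 FPKM. The 3 root markers, summed, had 54.3 FPKM in IDD4-DD, 64.0 FPKM in IDD4-AA and 65.7 FPKM in IDD4ox, against 93.6 FPKM in their WT, and between 23.2 and 38.2 FPKM in the flg22 experiment. The 3 seed markers summed to 3.90 FPKM in untreated WT and to at most 0.128 FPKM in the other 7 groups. In whole seedlings, fewer cells of a type and less RNA per cell cannot be told apart.

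The 7 genes lie on chromosomes 2, 3 and 5 (RefSeq annotation of TAIR10.1). CHS (AT5G13930) spans chr5:4488476-4490264 and FLS1 (AT5G08640) chr5:2803833-2805606. CHI (AT3G55120) spans chr3:20430059-20431597 and F3H (AT3G51240) chr3:19025192-19026872. Among the regulators, MYB12 (AT2G47460) spans chr2:19476326-19479597, MYB11 (AT3G62610) chr3:23154630-23156585 and MYB111 (AT5G49330) chr5:19998823-20001572. F3H is overlapped over 1588 of its 1681 bases by the antisense long non-coding RNA AT3G51238, and MYB11 over 495 of its 1956 bases by AT3G62615 on the other strand. Neither partner has a row in the tables. Whether counting used strand is not given in the sources used here, so reads of these partners cannot be told apart from those of F3H and MYB11.

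Since the enzymes were lower together after flg22 (below), the 250 bases before each annotated gene start were searched on both strands for 4 kinds of motif. The G-box CACGTG, whose ACGT core is a known binding sequence of HY5, was found in 3 of the 7 windows, and in 6.49% of the 27443 windows of that length before protein-coding genes. It lay 233 to 228 bases before the start in CHS, 249 to 244 bases in F3H and 118 to 113 bases in MYB12. The bare ACGT core, which every G-box contains, was in 5 of 7 windows and in 44.1% of all. The AC elements to which MYBs of this kind bind (AC-I, ACCTACC; AC-II, ACCAACC; and AC-III, ACCTAAC) were in 0 of 7 windows and in 6.12% of all. The sequence AGACAA, an IDD protein binding motif, was in 1 of 7, that of MYB11, and in 19.6% of all. These are letter matches in a short window and not shown sites. The windows with a G-box are printed to show where these letters sit, from chr5:4488226-4488475 for CHS, chr3:19024942-19025191 for F3H and chr2:19476076-19476325 for MYB12, all on the plus strand, with each ACGT core and its G-box flanks in capitals.
CHS: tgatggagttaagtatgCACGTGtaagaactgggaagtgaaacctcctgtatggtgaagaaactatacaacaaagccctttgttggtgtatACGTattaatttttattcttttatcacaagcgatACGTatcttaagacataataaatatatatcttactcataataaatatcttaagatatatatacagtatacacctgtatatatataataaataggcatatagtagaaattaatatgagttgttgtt
F3H: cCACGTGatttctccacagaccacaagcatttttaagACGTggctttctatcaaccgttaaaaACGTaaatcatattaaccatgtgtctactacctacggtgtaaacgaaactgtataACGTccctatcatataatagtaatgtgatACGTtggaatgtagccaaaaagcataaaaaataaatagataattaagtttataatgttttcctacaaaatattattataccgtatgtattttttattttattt
MYB12: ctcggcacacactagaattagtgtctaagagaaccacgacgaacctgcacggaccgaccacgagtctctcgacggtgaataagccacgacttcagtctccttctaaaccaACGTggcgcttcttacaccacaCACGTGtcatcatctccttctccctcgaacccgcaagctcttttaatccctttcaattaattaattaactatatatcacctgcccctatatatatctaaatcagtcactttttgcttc

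The question put to the flg22 experiment here is whether the flavonol genes respond to the peptide and whether the genotype matters. All 4 enzymes were lower after flg22 in both genotypes. Of the enzymes, FLS1, the last step, had the largest difference and CHS, the first step, the smallest. MYB12 and MYB111 were lower as well, but with flg22 levels near or under 1 FPKM. MYB11 was under 1 FPKM in all 8 groups. The idd4-labelled seedlings were within 1.5-fold of WT for every enzyme, with and without flg22.

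CHS had 76.7 FPKM after flg22 and 195 FPKM untreated in idd4-labelled seedlings, against 105 and 213 FPKM in WT. These are 2.55-fold and 2.02-fold lower levels after flg22 (log2 differences of -1.34 in idd4-labelled seedlings and -1.01 in WT). CHI had 8.73 FPKM after flg22 and 38.6 FPKM untreated in idd4-labelled seedlings, against 10.8 and 53.0 FPKM in WT. Its levels after flg22 were 4.42-fold lower in idd4-labelled seedlings and 4.90-fold lower in WT, a larger difference than that of CHS in both. F3H had 59.3 FPKM after flg22 and 203 FPKM untreated in idd4-labelled seedlings, against 62.9 and 251 FPKM in WT (3.41-fold and 3.98-fold lower). FLS1 had 13.7 FPKM after flg22 and 83.5 FPKM untreated in idd4-labelled seedlings, against 15.1 and 99.0 FPKM in WT (6.10-fold and 6.57-fold lower). Each enzyme was lower in both flg22 groups than in either untreated group. These are 1 pooled value per group, and how many other genes were so was not counted, so nothing particular to the enzymes is read from it. Of all compared genes, 19.4% were at least 1.5-fold lower after flg22 in idd4-labelled seedlings and 22.2% in WT.

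MYB12 had 1.02 FPKM after flg22 and 5.04 FPKM untreated in idd4-labelled seedlings, against 0.979 and 7.01 FPKM in WT. Its differences of log2(FPKM + 1) were -1.58 in idd4-labelled seedlings and -2.02 in WT, with flg22 levels near 1 FPKM, where the size depends on the pseudocount. MYB111 had 0.459 FPKM after flg22 and 2.68 FPKM untreated in idd4-labelled seedlings, against 0.0721 and 3.01 FPKM in WT. On the log2(FPKM + 1) scale its differences were -1.33 in idd4-labelled seedlings and -1.90 in WT, and both flg22 levels were too low for a firm ratio. MYB11 had 0.0887 FPKM after flg22 and 0.435 FPKM untreated in idd4-labelled seedlings. In WT it was listed at 0 after flg22 and had 0.405 FPKM untreated. At such levels no direction is read for MYB11.

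**Figure D1:**
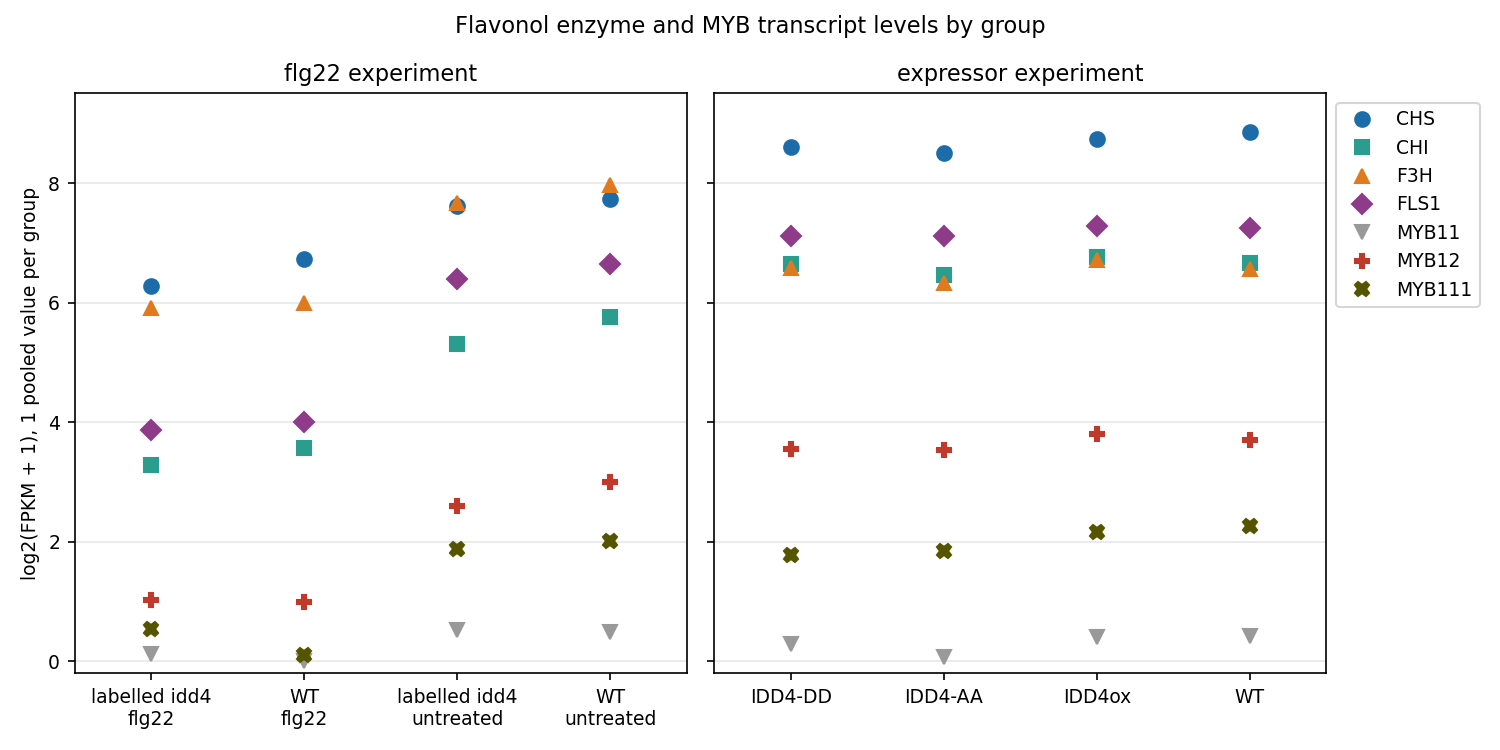
Levels of the 7 genes as log2(FPKM + 1) in the 4 groups of the flg22 experiment (left) and of the expressor experiment (right); each point is the 1 pooled value of a gene and group, and the experiments were normalised apart. FLS1 is at 13.7 and 15.1 FPKM in the flg22 groups and at 83.5 and 99.0 FPKM in the untreated groups, while in the expressor experiment it lies between 137 and 155 FPKM.

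Comparisons took in the genes that reached 1 FPKM in at least 1 of the 2 groups, which MYB11 did not. In idd4-labelled seedlings, the other 6 members were all at least 1.5-fold lower after flg22, as were 19.4% of all 18558 compared genes. In WT the same 6 were at least 1.5-fold lower, as were 22.2% of 18540 genes. MYB111 in both genotypes, and MYB12 in WT, reached 1 FPKM only when untreated and could not have been counted as higher, so no weight is placed on these 2 counts. The 4 enzymes were above 1 FPKM in every group. Among genes of at least 1 FPKM in both groups, a minimum chosen after seeing the data, all 4 enzymes were at least 1.5-fold lower in each genotype, beside 18% of 16829 genes in idd4-labelled seedlings and 20.8% of 16723 genes in WT. MYB12 was the fifth member of that set in idd4-labelled seedlings, and also lower. The median difference of the 4 enzymes was -1.89 in idd4-labelled seedlings and -2.08 in WT. The median of all compared genes was -0.06 in idd4-labelled seedlings and -0.16 in WT. FLS1 held the 99th lowest difference of all compared genes in idd4-labelled seedlings and the 97th lowest in WT. CHS was far less extreme, with 4.21% of genes as low or lower in idd4-labelled seedlings and 8.28% in WT. All 6 members stayed lower after flg22 when the tables were scaled to the median ratio or to nuclear genes alone.

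**Figure D2:**
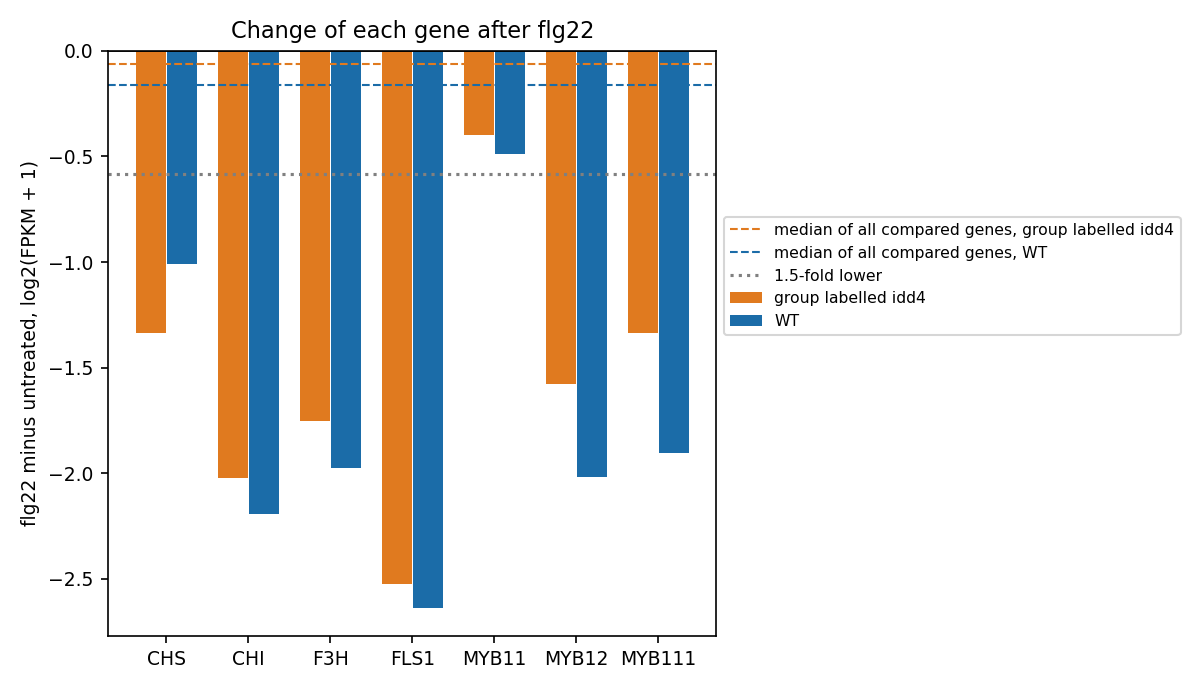
Difference of each gene between flg22 and untreated seedlings in log2(FPKM + 1), for idd4-labelled seedlings (orange) and WT (blue); dashed lines mark the median of all compared genes in each and the dotted line 1.5-fold lower. FLS1 reaches -2.52 and -2.64, CHS -1.34 and -1.01, and MYB11, under 1 FPKM throughout, stays above the dotted line.

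The proportions of the enzyme transcripts within a group also differed after flg22. FLS1 had 0.178 FPKM per FPKM of CHS after flg22 and 0.428 untreated in idd4-labelled seedlings, against 0.143 and 0.465 in WT. For CHI per CHS the values were 0.114 and 0.197 in idd4-labelled seedlings, against 0.103 and 0.248 in WT. F3H was the most abundant of the 4 in both untreated groups, and CHS in both flg22 groups. The summed level of the 4 enzymes was 158 FPKM after flg22 and 520 FPKM untreated in idd4-labelled seedlings, against 194 and 616 FPKM in WT.

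The genotypes were compared next. In untreated seedlings 0 of 6 compared members were past 1.5-fold in idd4-labelled seedlings against WT, beside 3.61% of all 18349 compared genes. With shares this small, 0 of 6 is near the background here and in the comparisons of genotypes and lines below, and says nothing particular about the members. All 6 were slightly lower in idd4-labelled seedlings, also when scaled to the median ratio or with nuclear genes alone. Neither setting made the summed FPKM of the groups equal (1175391 in untreated idd4-labelled seedlings and 1598661 in untreated WT). Differences ran from -0.45 for CHI and -0.41 for MYB12 to -0.12 for MYB111 and -0.13 for CHS. The enzyme median was -0.27, and that of all genes -0.05, so most compared genes were lower too. The summed seed markers were 0.0504 FPKM in untreated idd4-labelled seedlings and 3.90 FPKM in WT; their part in this was not tested. After flg22, 0 of 5 compared members were past 1.5-fold, beside 4.87% of 17926 genes. CHS was furthest apart, at 76.7 FPKM in idd4-labelled seedlings and 105 FPKM in WT (-0.45), followed by CHI (-0.28), FLS1 (-0.13) and F3H (-0.08). MYB12 was at 0.03, a sign that turned when nuclear genes alone were used.

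The flg22 response of idd4-labelled seedlings minus that of WT was then formed for each member. It was past 1.5-fold for 0 of 6 members, beside 9.33% of 18964 genes. CHS had -0.33, a larger reduction in idd4-labelled seedlings. CHI (0.17), F3H (0.22), MYB12 (0.44) and MYB111 (0.57) were reduced less there, and FLS1 had 0.11, which turned negative with nuclear genes alone. All genes had a median of 0.11 in this quantity, so CHI and F3H lay near it. MYB111 was the only compared member whose call depended on the pseudocount: its levels of 0.459 FPKM in idd4-labelled seedlings and 0.0721 FPKM in WT after flg22 gave a difference of responses of 1.86 with 0.1 FPKM added in place of 1.

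The other genes of the pathway were taken as lists. Of 10 further genes of flavonol decoration and side steps, 9 were compared and 6 were at least 1.5-fold lower after flg22 in each genotype, with medians of -1.73 in idd4-labelled seedlings and -1.86 in WT. Beside this list and those below, 19.4% of all compared genes were at least 1.5-fold lower in idd4-labelled seedlings and 22.2% in WT. UGT89C1, the flavonol 7-O-rhamnosyltransferase, had 10.9 FPKM after flg22 and 116 FPKM untreated in idd4-labelled seedlings, against 14.0 and 128 FPKM in WT. UGT78D2, the flavonoid 3-O-glucosyltransferase, had 15.8 and 86.5 FPKM in idd4-labelled seedlings, against 16.3 and 100 FPKM in WT. CHIL, a CHI-like protein that helps CHS, had 3.68 and 26.6 FPKM in idd4-labelled seedlings, against 6.43 and 37.2 FPKM in WT. These 3 were named for the largest differences of the list in WT, so their nearness to FLS1 was set by that choice. TT7 of the same list, named after its values were seen, had -1.28 in idd4-labelled seedlings and -1.49 in WT, nearer to CHS. The single gene of the list with a positive difference was FLS5, a paralog of FLS1 and named here after its values were seen, with 82.3 and 61.2 FPKM in idd4-labelled seedlings, against 82.7 and 68.0 FPKM in WT.

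Upstream, 5 of 7 genes of phenylpropanoid entry were at least 1.5-fold lower after flg22 in idd4-labelled seedlings and 6 of 7 in WT, with medians of -0.64 and -0.95. The 4-coumarate CoA ligase 4CL3, the isoform tied to flavonoids, had a larger difference on the log2(FPKM + 1) scale than any of the 7 genes (-3.13 in idd4-labelled seedlings and -3.60 in WT), with 1.32 FPKM after flg22 and 19.3 FPKM untreated in idd4-labelled seedlings, against 1.20 and 25.8 FPKM in WT. PAL1, phenylalanine ammonia-lyase, had 152 and 330 FPKM in idd4-labelled seedlings, against 143 and 383 FPKM in WT. The lignin-related 4CL1 had 103 and 160 FPKM, against 92.4 and 179 FPKM in WT. Of 7 late anthocyanin genes 6 were at least 1.5-fold lower after flg22 in each genotype, with medians of -1.62 in idd4-labelled seedlings and -1.20 in WT. The shares of all compared genes were 19.4% and 22.2%. UF3GT in WT, UGT75C1 in idd4-labelled seedlings and 5MAT in both reached 1 FPKM only when untreated. These could not have been counted as higher, so no weight is placed on the counts of late genes after flg22. LDOX, anthocyanidin synthase, had 2.78 and 14.2 FPKM in idd4-labelled seedlings, against 1.26 and 9.15 FPKM in WT. The anthocyanin glucosyltransferase UGT75C1 had 0.992 and 10.3 FPKM, against 1.70 and 9.54 FPKM in WT, and GSTF12, a transferase needed to store anthocyanin, 1.18 and 19.4 FPKM, against 2.82 and 10.7 FPKM in WT. Of 6 genes of the MYB-bHLH-WD40 complex that drives the late genes 3 were compared, of which PAP1 and EGL3 (named after their values were seen) were lower and TTG1 higher in each genotype. PAP1 and EGL3 reached 1 FPKM only when untreated and could not have been counted as higher, so no weight is placed on their direction. TTG1, the WD40 protein of the complex, had 80.5 FPKM after flg22 and 31.0 FPKM untreated in idd4-labelled seedlings, against 76.2 and 28.7 FPKM in WT.

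Among 10 repressors and turnover factors, 2 were at least 1.5-fold higher and 4 lower after flg22 in each genotype. Of all compared genes, 20.4% were higher in idd4-labelled seedlings and 17.1% in WT, so 2 of 10 is near the background. The shares lower were 19.4% in idd4-labelled seedlings and 22.2% in WT. KFB01, an F-box protein that marks phenylalanine ammonia-lyase for degradation, had 235 FPKM after flg22 and 32.2 FPKM untreated in idd4-labelled seedlings, against 198 and 26.9 FPKM in WT. MYB4, a repressor of phenylpropanoid genes, had 12.8 and 43.4 FPKM, against 12.3 and 49.9 FPKM in WT, and MYB3, a related repressor, 18.5 and 41.4 FPKM, against 17.0 and 48.0 FPKM in WT. Both repressors were thus lower. The others past 1.5-fold, named after their values were seen, were the F-box gene KFB20 (higher) and the repressors MYB7 and MYB32 (lower). Of 11 genes of the light input, 2 were higher and 6 lower in idd4-labelled seedlings, and 2 higher and 5 lower in WT, so the number higher is again near the background. HYH, the close relative of HY5, had 18.9 and 55.9 FPKM in idd4-labelled seedlings, against 15.1 and 75.1 FPKM in WT. HY5, named after its values were seen, had 2.29 and 4.99 FPKM, against 1.91 and 6.63 FPKM in WT. Chosen in the same way, BBX20 was higher and COP1 and BBX25 lower in both genotypes, and BBX24 was past the fold, lower, in idd4-labelled seedlings. The UV-B receptor repressors RUP1 and RUP2 went opposite ways: RUP1 had 62.9 and 12.7 FPKM in idd4-labelled seedlings, against 56.6 and 16.8 FPKM in WT, and RUP2 11.7 and 35.6 FPKM, against 12.0 and 44.0 FPKM in WT.

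**Figure D3:**
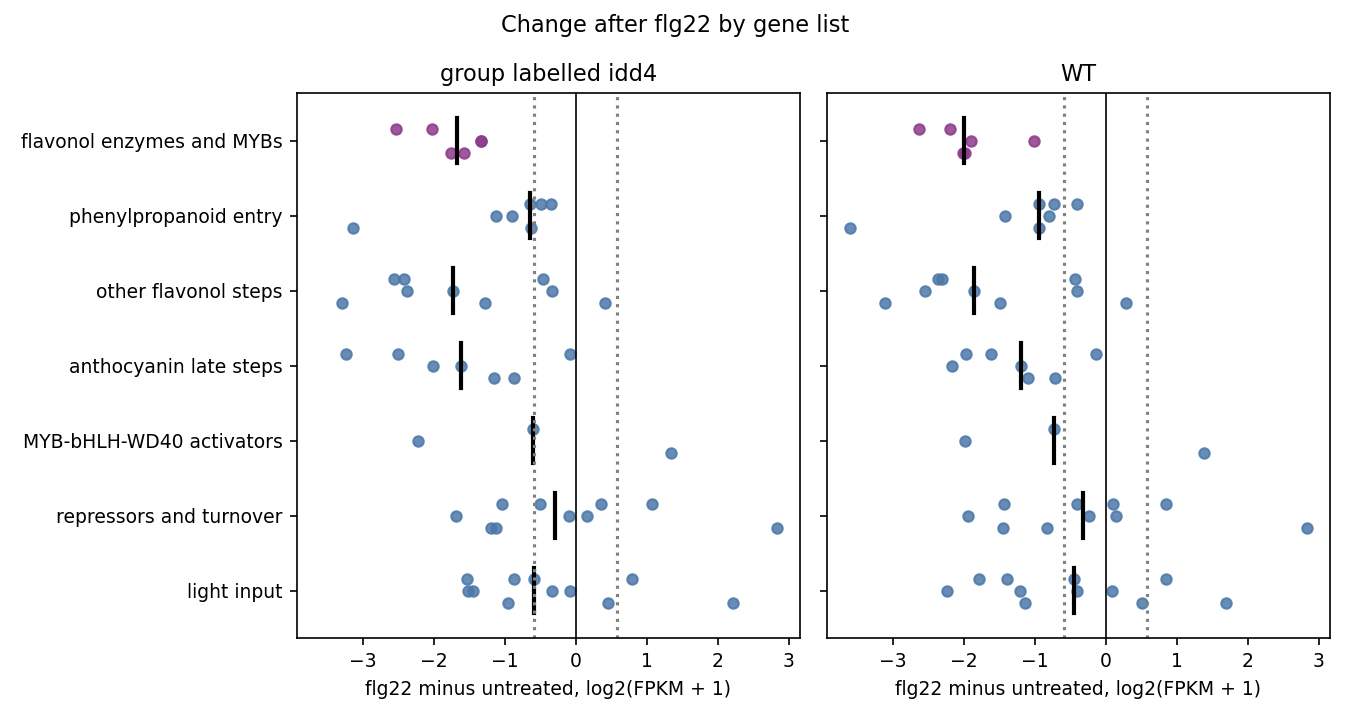
Difference between flg22 and untreated seedlings in log2(FPKM + 1) for each compared gene of 7 lists, in idd4-labelled seedlings (left) and WT (right); a point is a gene, a black bar the list's median and dotted lines 1.5-fold. The flavonol enzymes and MYBs are in purple; the 4 enzymes lie between -2.52 and -1.34 on the left and between -2.64 and -1.01 on the right, and the medians of the phenylpropanoid entry genes are -0.64 and -0.95.

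In the expressor experiment the question was whether IDD4, in its unmodified, DD or AA form, moved the flavonol genes. All 4 enzymes and both measurable MYB genes lay within 1.5-fold of WT in each line on the log2(FPKM + 1) scale. CHS had 390 FPKM in IDD4-DD, 362 FPKM in IDD4-AA and 424 FPKM in IDD4ox, against 462 FPKM in WT. All 3 lines were below WT for CHS, with differences from -0.35 in IDD4-AA to -0.12 in IDD4ox. CHI had 98.7, 87.0 and 107 FPKM in IDD4-DD, IDD4-AA and IDD4ox, against 99.9 FPKM in WT. F3H had 94.8 FPKM in IDD4-DD, 79.0 FPKM in IDD4-AA and 104 FPKM in IDD4ox, against 93.5 FPKM in WT. For both of these enzymes IDD4-AA was the lowest group and IDD4ox the highest. FLS1 had 137 FPKM in both IDD4-DD and IDD4-AA and 155 FPKM in IDD4ox, against 151 FPKM in WT. MYB12 was also highest in IDD4ox, with 10.7 FPKM in IDD4-DD, 10.6 FPKM in IDD4-AA and 13.0 FPKM in IDD4ox, against 12.1 FPKM in WT. MYB111 had 2.41 FPKM in IDD4-DD, 2.58 FPKM in IDD4-AA and 3.45 FPKM in IDD4ox, against 3.77 FPKM in WT, so both mutated forms were below IDD4ox and WT. MYB11 stayed between 0.0512 FPKM in IDD4-AA and 0.334 FPKM in WT.

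IDD4ox against WT had 0 of 6 compared members past 1.5-fold, beside 6.43% of 19016 genes, with an enzyme median of 0.07 and an all-gene median of 0.07. Here CHI, F3H, MYB12 and FLS1 were slightly above WT, FLS1 only without scaling to the median ratio. IDD4-AA against WT had 0 of 6, beside 3.97% of 18859 genes. All 6 were below WT under every scaling, from -0.41 for MYB111 and -0.35 for CHS to -0.13 for FLS1, where the all-gene median was 0.03. IDD4-DD against WT had 0 of 6, beside 5.62% of 18955 genes. MYB111 was nearest the threshold at -0.48 and passed it with 0.1 FPKM added in place of 1. The enzyme median was -0.08, with F3H at 0.02, a sign that turned under scaling to the median ratio.

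The 3 lines were also set against each other. IDD4-DD against IDD4-AA had 0 of 6 members past 1.5-fold, beside 4.14% of 18956 genes, with F3H at 0.26, CHI at 0.18, CHS at 0.11 and FLS1 at 0.00. IDD4-DD against IDD4ox had 0 of 6, beside 3.4% of 19036 genes, and IDD4-AA against IDD4ox 0 of 6, beside 5.41% of 19013 genes. All 6 were below IDD4ox in both, also under scaling, with enzyme medians of -0.13 for IDD4-DD and -0.27 for IDD4-AA. The all-gene median was -0.04 in each, so most compared genes were below IDD4ox too. For FLS1, 23.2% of genes were as low or lower in IDD4-DD and 28.8% in IDD4-AA, and for F3H 30.8% and 9.15%. IDD4-DD and IDD4-AA share the RFP tag but differ in sequence and in IDD4 level (198 FPKM in IDD4-DD and 71.6 FPKM in IDD4-AA). The paper describes these lines as picked for comparable transcript levels, with equal protein. IDD4-DD and IDD4ox (197 FPKM) have like levels but differ in sequence and tag. IDD4-AA and IDD4ox differ in level, sequence and tag. What differs within a pair cannot be told apart here. Of the other lists, C4H (183 FPKM in IDD4-DD and 147 FPKM in IDD4-AA), PAL2 (165 and 126 FPKM), UGT78D2 (59.6 and 50.4 FPKM), TTG1 (34.9 and 29.1 FPKM) and KFB01 (15.5 and 12.8 FPKM) were within 1.5-fold and higher in IDD4-DD, and MYB3 (17.1 and 20.7 FPKM) and RUP1 (5.26 and 8.07 FPKM) lower. PAP1, a MYB activator of the late anthocyanin genes and named after its values were seen, had 3.67 FPKM in IDD4-DD, 1.58 FPKM in IDD4-AA and 1.70 FPKM in IDD4ox, against 1.21 FPKM in WT, and was past 1.5-fold in IDD4-DD against each of the others. BBX25, a B-box factor of light signalling, was the only light input gene past 1.5-fold in IDD4-DD against IDD4-AA. It had 6.58 FPKM in IDD4-DD, 3.49 FPKM in IDD4-AA and 6.82 FPKM in IDD4ox, against 3.55 FPKM in WT. HYH, chosen here after its values were seen, had 12.8 FPKM in IDD4-AA and 22.7 FPKM in IDD4ox, against 20.1 FPKM in WT. HYH in IDD4-AA was thus at least 1.5-fold below both IDD4ox and WT. The summed root markers were also below WT in all 3 lines, and their part was not tested.

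The late anthocyanin genes had other values than the early genes, a difference that could not be tested. All 7 late genes were at least 1.5-fold higher in IDD4-DD than in WT (median 1.45), 3 of 7 in IDD4-AA (0.39) and 6 of 7 in IDD4ox (1.29), against medians of -0.08, -0.22 and 0.07 for the 4 flavonol enzymes. Of all compared genes, 3.15% were at least 1.5-fold higher in IDD4-DD, 1.85% in IDD4-AA and 3.94% in IDD4ox. In untreated idd4-labelled seedlings all 7 late genes were above WT and 4 were at least 1.5-fold higher, beside 1.59% of all genes, with a median of 0.65 where that of the enzymes was -0.27. LDOX had 26.5 FPKM in IDD4-DD, 10.9 FPKM in IDD4-AA and 22.5 FPKM in IDD4ox, against 6.56 FPKM in WT. GSTF12 had 28.8, 13.3 and 27.7 FPKM in IDD4-DD, IDD4-AA and IDD4ox, against 9.94 FPKM in WT. The shared step TT7, flavonoid 3'-hydroxylase, had 27.8 FPKM in IDD4-DD, 17.7 FPKM in IDD4-AA and 27.3 FPKM in IDD4ox, against 19.4 FPKM in WT. FLS1 and DFR compete for dihydroflavonol, and the ratio of their transcripts (DFR chosen after its values were seen) was 8.88 in IDD4-DD, 18.8 in IDD4-AA and 12.2 in IDD4ox, against 37.2 in WT. In the flg22 experiment this ratio was 3.02 after flg22 and 9.22 untreated in idd4-labelled seedlings, against 11.8 and 25.5 in WT. The ratio was thus highest in untreated WT in both experiments. DFR itself had 15.5, 7.31 and 12.8 FPKM in IDD4-DD, IDD4-AA and IDD4ox, against 4.05 FPKM in WT, and 9.06 FPKM in untreated idd4-labelled seedlings, against 3.89 FPKM in untreated WT.

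**Figure D4:**
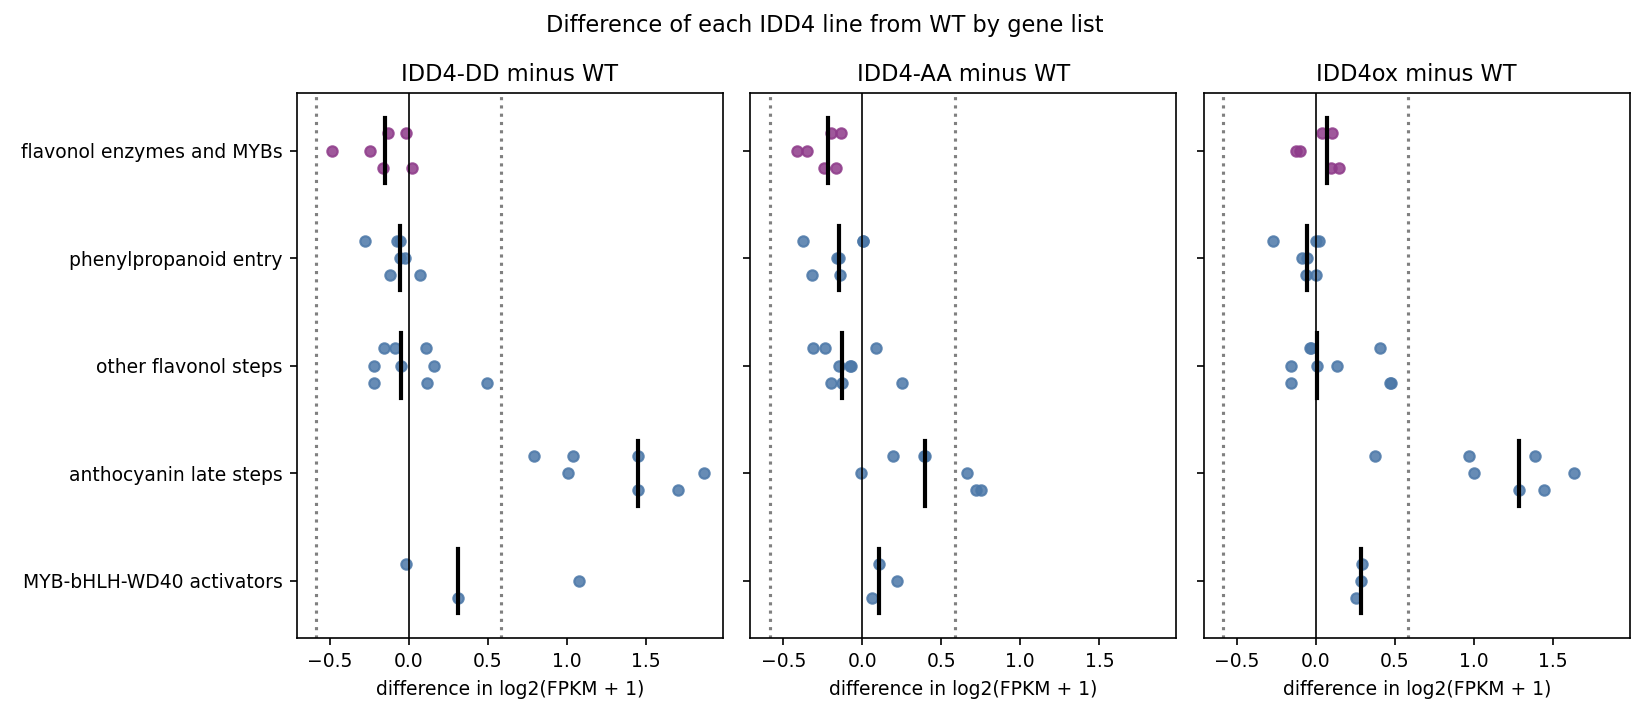
Difference of IDD4-DD, IDD4-AA and IDD4ox from WT in log2(FPKM + 1) for each compared gene of 5 lists; a point is a gene, a black bar the list's median and dotted lines 1.5-fold. The flavonol enzymes and MYBs (purple) stay within the dotted lines in all 3 panels, while the late anthocyanin genes have medians of 1.45, 0.39 and 1.29.

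The order of the enzymes differed between the experiments. F3H had 4.73 to 6.80 FPKM per FPKM of CHI in the 4 groups of the flg22 experiment, and 0.908 to 0.966 in the 4 expressor groups. In the expressor experiment CHS was highest in every group, followed by FLS1, CHI and F3H. The experiments were processed into separate tables, so only such ratios within a group are set side by side. F3H has the antisense partner named above, which has no values here, and its part was not tested.

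Genes whose pattern was most like the mean of the 4 enzymes were ranked by Pearson's r over the 8 group values, each table centred on its own mean, among 11592 genes. This is a description: the values are pooled, and the pattern is dominated by flg22, so that 110 genes had r of at least 0.99. The enzymes share in their own mean; CHI had 0.998, F3H 0.997, FLS1 0.996 and CHS 0.976. MYB12, which does not, had 0.992 and the 71st place, while MYB11 and MYB111 were under the 5 FPKM needed to be ranked. The 8 genes outside the 7 members with the highest r were AT3G52740, AT1G28610, MAT3, UGT84A2, SOFL1, FAH1, DBP1 and AMT1;2, from 0.999 for AT3G52740 to 0.997 for AMT1;2. UGT84A2 is a sinapate glucosyltransferase and FAH1 the ferulate 5-hydroxylase of sinapate synthesis. Only these are described, and no shared function is read from the 8 genes. In WT the flg22 differences of the 8 genes ran from -3.00 for UGT84A2 to -0.97 for DBP1, with -1.88 for FAH1 and -2.32 for AT3G52740. Over the expressor groups alone r was lower for these genes, at 0.856 for UGT84A2, 0.766 for FAH1 and 0.977 for AT3G52740.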

How the data were processed

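RNA of 20 seedling samples was sequenced by the authors with paired-end reads, trimmed with Trimmomatic, aligned with TopHat and quantified with Cufflinks, per the labels and the study's methods. The deposited values are FPKM, 1 pooled value per gene and group, and per-sample values and read depth were not used here because the tables do not carry them. ChIP-seq samples were not analysed here. The gene identifiers of the deposited tables were out of alphabetical place in 21642 of 27371 rows beside values that follow alphabetical order, so they were sorted. With sorted identifiers, 1983 of 1983 genes listed in a supplementary table of the study had the same untreated FPKM within a relative tolerance of 0.001, against 498 in the order given; 3 of the 7 genes are among them. That table's values were not used otherwise.

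With 1 value per group, no test was run. Differences of log2(FPKM + 1) were computed for 11 comparisons over genes of at least 1 FPKM in either group, and 1.5-fold was the threshold for counts (Python 3 scripts with numpy and pandas, checked on simulated data). Alternatives were a pseudocount of 0.1 or none, scaling to the median ratio of genes of at least 5 FPKM, nuclear genes alone, no minimum, a minimum of 5 FPKM and 2-fold. With nuclear genes alone, each group was brought back to its own summed FPKM, and these sums were not made equal between groups. The members and lists were chosen with earlier results of these data known. Named beside the 7 genes were, in each list, up to 3 genes with the largest flg22 difference in WT and up to 2 with the largest difference of IDD4-DD from IDD4-AA among genes of at least 5 FPKM, and the 8 genes most like the enzymes, with IDD4, FRK1, IOS1 and CYP81F2 as checks. Gene positions and windows come from the RefSeq annotation of TAIR10.1; the build of the study is TAIR10.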

Additional observations from a re-analysis of the deposited data

How the results depend on the processing

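No paired analysis was possible because the tables hold 1 pooled value per group, and leaving out a replicate could not be done for the same reason. Scaling to the median ratio, nuclear genes alone, no minimum, a minimum of 5 FPKM and 2-fold moved no median and no count of members by over 1.5 times, and no median or member past 1.5-fold changed sign under any alternative. Scaling shifted flg22 against untreated by 0.11 in WT on the log2 scale (median ratio -0.11). A minimum of 1 FPKM in both groups, added after seeing the data, left 5 members lower after flg22 in idd4-labelled seedlings and 4 in WT. The medians of the 3 low MYB genes after flg22 were MYB111's own values (-1.33 in idd4-labelled seedlings and -1.90 in WT) and depended on the pseudocount. With 0.1 FPKM they were -2.19 after flg22 in idd4-labelled seedlings and -2.72 in WT, and 0.92 for idd4-labelled seedlings over WT after flg22. With none, over genes above 0 in both groups, they were -2.30, -4.11 and 1.37, and 1.69 for the difference of the flg22 responses. With 0.1 FPKM, 1 member (MYB111) was past 1.5-fold, in place of 0, in IDD4-DD over WT and in the difference of responses. The median of the 4 enzymes moved past 1.5-fold under none of these settings in any of the 11 comparisons. Within the flg22 table alone, r with the enzymes was at least 0.999 for the 8 named genes. With 1 value per group and unknown depth, differences under 1.5-fold cannot be set against any error, and levels under 1 FPKM carry little weight.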
